A study of Homo sapiens with 8 samples.

Results

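Thrombospondins are secreted calcium-binding glycoproteins that sit between cells and their matrix. The family has 5 genes, THBS1, THBS2, THBS3, THBS4 and COMP, and it was examined here with 2 receptors, CD36 and CD47, in CFPAC-1, a cell line of human origin derived from pancreatic ductal adenocarcinoma. The 7 genes were taken by symbol from the deposited table of 58870 genes, and each matched 1 row. They were selected on the measured fold changes of THBS1 and THBS2, which were lower in cells that overexpress ADRA2A, so the differences between the groups are given below as a description of these genes, with no p-values. How many passed the threshold is given only beside the share of all genes that did. Of the 7 genes, 4 passed the filter on low counts and entered the fit over 14785 genes (THBS1, THBS2, THBS3 and CD47), and 3 did not (THBS4, COMP and CD36).

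The study compared CFPAC-1 cells carrying an empty vector (4 libraries) with CFPAC-1 cells carrying an ADRA2A transgene (4 libraries). ADRA2A encodes the alpha-2A adrenergic receptor, which couples to Gi and lowers cyclic AMP. All cells were grown for 72 hours in IMDM medium with 10% FBS and 1% penicillin and streptomycin, and none received a drug. The labels do not give the promoter of the transgene, say whether each line was a clone or a pool, or say whether the 4 libraries of a group came from separate transductions or cultures, so adjusted p-values below measure the spread between these libraries, which may be technical.

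THBS1 and THBS2 assemble into trimers and carry the type 1 repeats that bind CD36 and thereby restrain endothelial cells. THBS1 is also known to activate latent TGF-beta, and THBS2 binds matrix metalloprotease 2, which is then cleared through the endocytic receptor LRP1. THBS3, THBS4 and COMP assemble into pentamers, lack the type 1 repeats and are best known from cartilage, tendon and muscle. CD47 is the receptor of the thrombospondin carboxy-terminal domain and is also the ligand through which SIRPA on phagocytes is told not to engulf a cell, while CD36 is a scavenger receptor and fatty acid transporter.

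The sequence just before the RefSeq start of THBS1 and THBS2 is shown because both genes were lower in the same cells. It was taken from RefSeq on GRCh38.p14, reads 5′ to 3′ on the strand of the gene, and has the TEAD motif GGAATG, on either strand, in capitals. For THBS1 it is chr15:39580829-39581078 on the plus strand, the 250 bases before the start. For THBS2 it is chr6:169253897-169253989 on the minus strand, positions -143 to -51 from the start. This is the longest stretch of its 250 bases that no annotated THBS2 exon covers, and 111 of the 250 bases are exonic. The stretch lies inside the annotated gene (169215780 to 169254050), between exons of longer THBS2 transcripts, and is not upstream of those transcripts.
THBS1: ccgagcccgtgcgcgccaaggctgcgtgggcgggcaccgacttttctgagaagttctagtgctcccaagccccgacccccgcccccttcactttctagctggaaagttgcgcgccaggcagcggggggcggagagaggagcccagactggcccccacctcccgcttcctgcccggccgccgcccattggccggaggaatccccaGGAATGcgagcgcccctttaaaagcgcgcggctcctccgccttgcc
THBS2: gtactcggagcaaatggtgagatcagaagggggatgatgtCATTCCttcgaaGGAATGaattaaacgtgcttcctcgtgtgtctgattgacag

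The THBS1 window held 1 match to the TEAD motif, from position -46 to -41, and the THBS2 window held 2, from -103 to -98 on the minus strand and from -91 to -86 on the plus strand. Within the 250 bases before the start, COMP and CD36 also held 1 match each, and THBS3, THBS4 and CD47 held 0, where 11.9% of 35116 RefSeq promoters of that length held at least 1. The 8 other motifs were searched on both strands too. The AP-1 motif TGANTCA (6.57% of promoters), the cyclic AMP response element TGACGTCA (1.65%) and the CArG box bound by SRF (1.16%) had 0 matches in the 7 windows. The CCAAT box CCAAT (32.0% of promoters) was found in THBS1 and THBS3, and the Sp1 GC box GGGCGG (42.6%) was found 4 times in THBS1, 6 times in CD47, 2 times in COMP and 1 time each in THBS3 and THBS4, and not in THBS2 or CD36. The EGR1 motif GCGNGGGCG (8.41%) was found in THBS1, where it overlaps a GC box, and in THBS4, the E-box CACGTG (6.34%) in THBS4, and the TATA box TATAAA (10.7%) in THBS2 and CD36. A match is a description of these letters and not a measured binding site. The TEAD motif alone was marked in capitals, and whether it has a part in the levels of THBS1 and THBS2 was not tested. Each window precedes 1 RefSeq start per gene, and other starts were not searched. The windows of THBS3, CD36 and CD47 lie wholly inside their annotated genes, and those of THBS2 and THBS4 lie partly inside.

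Library totals lay between 14427035 and 17528915 counts. ADRA2A itself had 0 counts in all 4 empty-vector libraries and 112, 142, 154 and 172 counts in ADRA2A replicates 1 to 4. Of 9 markers of ductal epithelium 8 were tested, and their summed level was 12114 to 12684 counts-per-million (CPM) in the empty-vector and 12041 to 13093 CPM in the ADRA2A libraries. Of these 8, KRT19, EPCAM and MUC1 rose, KRT7, CDH1, SOX9 and KRT18 fell, and KRT8 did not pass the threshold, with log2 fold changes from -0.43 (KRT7) to 0.79 (MUC1). CFTR, the remaining marker, had at most 20 counts in a library. SMAD4, which CFPAC-1 is known to lack, had 0 counts in all 8 libraries. Markers of fibroblasts, which make thrombospondins in tumours, summed to 78.2 to 82.6 CPM in the empty-vector and 24 to 26.4 CPM in the ADRA2A libraries, nearly all of it COL1A1. The defining fibroblast markers COL3A1 and FAP had at most 1 count in any library, and DCN, PDGFRA and PDGFRB at most 5. COL1A2 had at most 12 counts, and LUM had 1.38 and 0.925 CPM (edgeR adjusted p = 0.168). Endothelial markers summed to at most 3.35 CPM in any library, with CLDN5 and TEK at 0 counts in all 8. Of the 6 endothelial markers 2 were tested. PECAM1 rose from 0.773 to 2.44 CPM (edgeR adjusted p = 8.12e-05) and KDR fell from 1.23 to 0.482 CPM (edgeR adjusted p = 0.00234). Of 6 myeloid markers CD163 was at 0 counts in all libraries and PTPRC had at most 4, while LYZ and CD68 carried most of a sum of 121.2 to 133.4 CPM in the empty-vector and 198.6 to 211.9 CPM in the ADRA2A libraries. The part of these markers in the results below was not tested.

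THBS1 (ENSG00000137801.10) lies on the plus strand of chromosome 15 (GRCh38, 39581079 to 39599466) and has 22 exons. Its libraries showed 1115, 1051, 1175 and 1137 CPM in empty-vector replicates 1 to 4, and 266.7, 261.8, 248.1 and 252.8 CPM in ADRA2A replicates 1 to 4. All 4 ADRA2A libraries lay far below all 4 empty-vector libraries, and the spread within each group was narrow. The means were 1119 ± 52.1 and 257.4 ± 8.46 CPM (SD, n = 4 each), which differ by a log2 fold change of -2.12 ± 0.04 (SE), so the ADRA2A cells held 23.0% of the empty-vector level. These are 72122 counts in the empty-vector group and 16151 in the ADRA2A group. By log2 fold change THBS1 ranked 85th from the lowest of the 14785 tested genes. In CPM, which does not correct for gene length, its drop of 862.1 was the 2nd largest. In bulk RNA, fewer cells that express a gene and less RNA of it per cell cannot be told apart.

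THBS2 (ENSG00000186340.15; chromosome 6, 169215780 to 169254050, minus strand, 22 exons) was less abundant than THBS1 in both groups, also per length. Its CPM values were 27.8, 28.8, 28.9 and 27.2 in empty-vector replicates 1 to 4, and 3.39, 2.77, 4.81 and 3.61 in ADRA2A replicates 1 to 4. The groups did not overlap, and ADRA2A replicate 3 was the highest of its group. The log2 fold change was -2.93 ± 0.11 (SE), which leaves 12.9% of the empty-vector level. By log2 fold change it ranked 31st from the lowest of the tested genes. The ADRA2A value rests on 49, 42, 84 and 57 counts and varied by a coefficient of variation of 23.4%, against 2.96% in the empty-vector group.

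THBS3 (ENSG00000169231.13; chromosome 1, 155195588 to 155209051, minus strand, 23 exons) differed in the other direction. It had 23.1, 21.2, 19.6 and 20.4 CPM in the empty-vector libraries and 28.0, 26.7, 25.7 and 28.8 CPM in the ADRA2A libraries. Each ADRA2A library was above each empty-vector library, though the gap between the groups was small. The log2 fold change was 0.37 ± 0.07 (SE), a ratio of 1.29.

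THBS4, known from tendon and muscle, and COMP, a cartilage matrix protein, were at the edge of detection. THBS4 (ENSG00000113296.14; chromosome 5, 79991311 to 80083287, plus strand) had 7, 7, 4 and 2 counts in the empty-vector libraries and 3, 8, 11 and 1 in the ADRA2A libraries. The group sums were 20 counts (95% exact Poisson interval 12.2 to 30.9) and 23 counts (14.6 to 34.5), and the groups overlapped. COMP (ENSG00000105664.11; chromosome 19, 18782773 to 18791305, minus strand) had 1 count in empty-vector replicate 3 and 0 in the other 7 libraries. The 0 counts of the ADRA2A group, out of 62914575, allow up to 3 counts, or 0.0477 CPM, as a one-sided limit, while the upper end of the exact Poisson interval is 3.69 counts. These intervals and limits cover counting error only.

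CD47 (ENSG00000196776.16; chromosome 3, 108043091 to 108091862, minus strand) was abundant in every library. Its values were 351.6, 371.7, 328.9 and 353.4 CPM in empty-vector replicates 1 to 4 and 440.3, 448.7, 453.9 and 454.7 CPM in ADRA2A replicates 1 to 4. The ADRA2A libraries all lay above the empty-vector libraries and close to each other. The log2 fold change of CD47 was 0.36 ± 0.04 (SE), a ratio of 1.28. CD36 (ENSG00000135218.19; chromosome 7, 80369575 to 80679277, plus strand), the other receptor, had 6, 0, 1 and 0 counts in the empty-vector libraries and 0, 2, 1 and 1 in the ADRA2A libraries. With sums of 7 counts (95% exact Poisson interval 2.81 to 14.4) and 4 counts (1.09 to 10.2), no difference in CD36 was detectable at this depth.

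**Figure D1:**
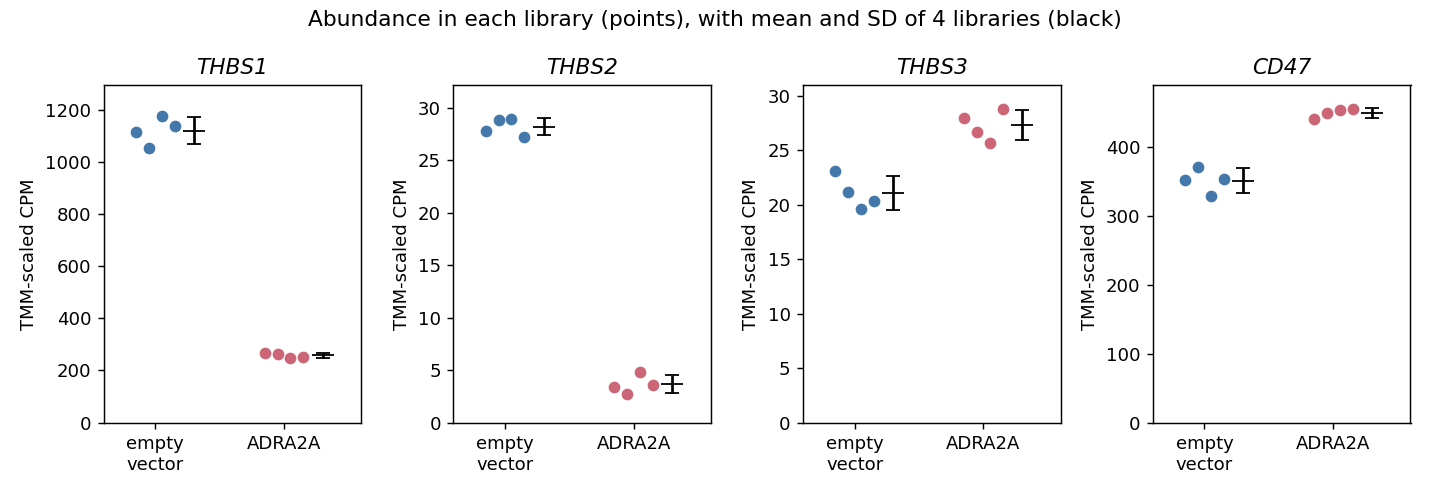
TMM-scaled CPM (vertical axes, each from 0) of THBS1, THBS2, THBS3 and CD47 in the 4 empty-vector libraries (blue) and the 4 ADRA2A libraries (red), with the mean and SD of each group in black. THBS1 goes from a mean of 1119 to 257.4 CPM and THBS2 from 28.2 to 3.64 CPM, while THBS3 and CD47 are slightly higher in every ADRA2A library.

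Of the 4 genes tested, all 4 had an edgeR adjusted p-value under 0.05, 2 lower and 2 higher in the ADRA2A cells, where 42.7% of all tested genes did (21.1% lower and 21.6% higher). The groups did not overlap for the same 4 genes, as for 39.2% of all tested genes (19.5% lower and 19.7% higher). A call with a log2 fold change of -1 or lower, as THBS1 and THBS2 had, was made for 2.11% of tested genes. Since THBS1 and THBS2 were chosen for their difference, nothing is read from these counts.

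Levels of different genes were compared per kilobase of annotated exon sequence. In the empty-vector cells THBS1 stood highest, at 122.2 ± 5.69 CPM per kilobase, followed by CD47 at 42.7 ± 2.13, THBS3 at 4.56 ± 0.331 and THBS2 at 3.91 ± 0.116 (SD, n = 4 each). THBS3 and THBS2 were the closest neighbours in that order, with 4.23 to 5 against 3.77 to 4.01 CPM per kilobase, which do not overlap. In the ADRA2A cells the order of THBS1 and CD47 was exchanged. CD47 then stood at 54.6 ± 0.806 CPM per kilobase, THBS1 at 28.1 ± 0.924, THBS3 at 5.90 ± 0.299 and THBS2 at 0.506 ± 0.119 (SD, n = 4 each). THBS4 was last among the genes with counts in every library, at 0.0678 ± 0.0344 and 0.0776 ± 0.0578 CPM per kilobase (SD, n = 4 each). CD36 and COMP were at 0.0323 CPM per kilobase or less in every library, and their place in the order cannot be read from so few counts. Among all tested genes, THBS1 went from the 98.3rd to the 89.7th percentile per kilobase and THBS2 from the 46.1st to the 11.1th, while CD47 was at the 93.6th and 95.5th.

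**Figure D2:**
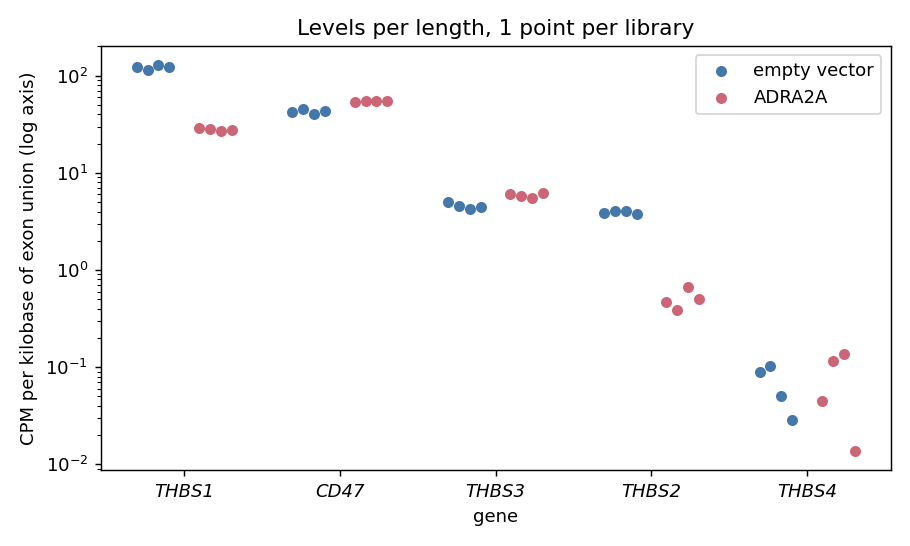
CPM per kilobase of exon union (vertical, log axis) of 5 genes in each empty-vector library (blue) and each ADRA2A library (red). THBS1 lies above CD47 in the empty-vector libraries and below it in the ADRA2A libraries, and THBS2 goes from 3.91, just below THBS3, to 0.506 CPM per kilobase, while CD36 and COMP, with 0 counts in several libraries, are not drawn.

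Ratios taken within a library do not depend on the scaling between libraries. Per kilobase, THBS1 made up 92.9% to 93.9% of the summed level of the 5 thrombospondin genes in the empty-vector libraries and 80.3% to 82.0% in the ADRA2A libraries. The share of THBS3 went from between 3.10% and 3.83% to between 16.5% and 18.2%, and that of THBS2 from between 2.85% and 3.25% to between 1.10% and 2%. These shares rest on the values that chose the genes and are a description. The level of THBS3 itself went from 4.56 to 5.90 CPM per kilobase, so its larger share mostly follows from the lower THBS1 in the sum. THBS1 was the main thrombospondin transcript per kilobase in both groups, with THBS3 as the next. With no correction for length, THBS2 stood above THBS3 in the empty-vector cells, at 28.2 and 21.1 CPM. The ratio of CD47 to THBS1 per kilobase was 0.35 ± 0.0337 in the empty-vector cells and 1.94 ± 0.0906 in the ADRA2A cells (SD, n = 4 each). The ratio of THBS1 to THBS2 ranged from 28.6 to 32.9 in the empty-vector libraries and, with a wider spread, from 40.5 to 74.2 in the ADRA2A libraries.

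Several annotated genes overlap the members, and the use of strand in counting is not given in the sources used here. The antisense gene FSIP1, which shares 11110 bases with THBS1, had between 12 and 32 counts per library, against at least 3854 for THBS1. THBS1-IT1, which lies inside THBS1 on the same strand, had 19 counts over the empty-vector and 3 over the ADRA2A libraries. THBS2-AS1 had 1 to 6 counts per library and a sum of 16 in the empty-vector and 17 in the ADRA2A libraries. THBS3 overlaps THBS3-AS1, with 5 to 15 counts per library, and shares 357 bases with MTX1, a mitochondrial import gene on the opposite strand. MTX1 had 620 to 765 counts per library, where THBS3 had 311 to 456. The change of MTX1 was 0.02 ± 0.05 (SE) in log2 units (edgeR adjusted p = 0.787). Reads of a member and of a gene on the opposite strand cannot be told apart here, and the opposite-strand genes at THBS1 and THBS2 had at most 32 counts in a library.

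The genes beside the members on the chromosome went both ways. Of the 20 tested genes beside THBS1, taken as 10 on either side, 7 rose and 4 fell. Their median log2 fold change was 0.02, and of all tested genes 21.6% rose and 21.1% fell. For THBS2 the counts were 2 and 5 with a median of 0.00, for THBS3 3 and 2 with a median of 0.02, and for CD47 5 and 5 with a median of 0.06. Among the 20 neighbours of THBS1 the lowest value belonged to GPR176, an orphan G protein-coupled receptor gene whose lower coordinate lies 218.0 kb beyond that of THBS1. GPR176 fell from 20.8 ± 0.512 to 5.36 ± 0.586 CPM (SD, n = 4 each). On the log2 scale the change was -1.96 ± 0.09 (SE), edgeR adjusted p = 2.31e-12. FSIP1, which overlaps THBS1 and is the next tested gene on that side, was at 0.49 ± 0.30 (SE) in log2 units (edgeR adjusted p = 0.202). The largest value near CD47 was that of HHLA2, an immune checkpoint ligand of the B7 family whose lower coordinate lies 253.0 kb from that of CD47, which rose from 6.34 to 36.8 CPM (edgeR adjusted p = 6.55e-14). Near THBS2, PDE10A, a cyclic nucleotide phosphodiesterase gene, fell from 1.73 to 0.625 CPM (edgeR adjusted p = 0.000642) and RNASET2, a secreted ribonuclease gene, rose from 32.3 to 73.3 CPM (edgeR adjusted p = 1.89e-11). The nearest tested gene on the lower side of THBS3, the mucin gene MUC1, rose from 278.6 to 483.0 CPM (edgeR adjusted p = 4.76e-12).

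**Figure D3:**
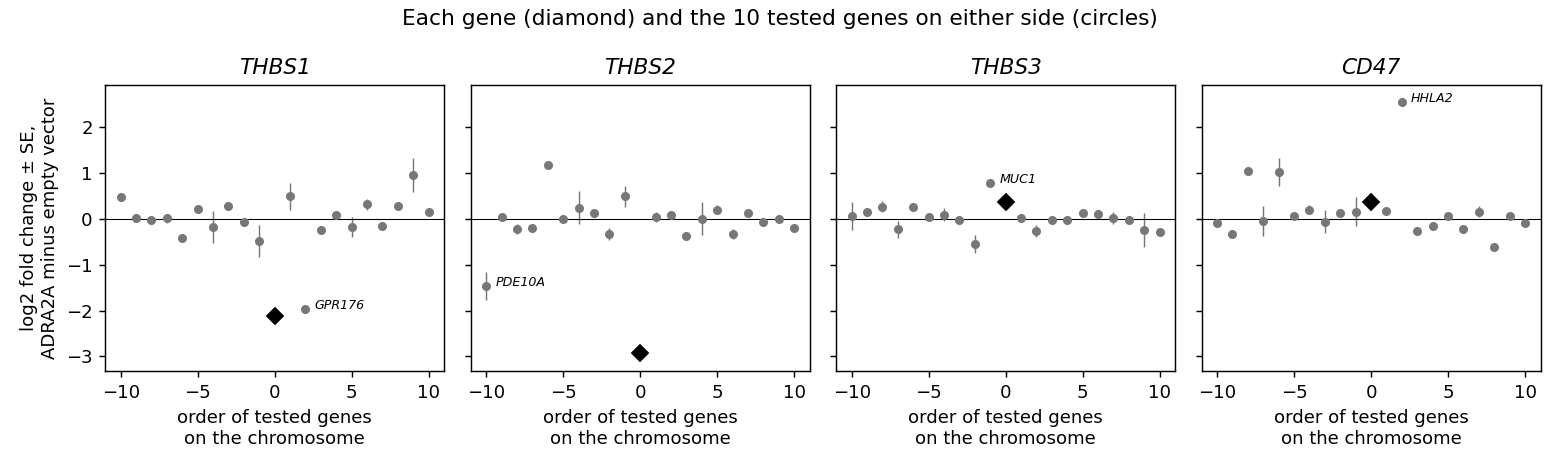
Log2 fold change ± SE, ADRA2A minus empty vector (vertical), of THBS1, THBS2, THBS3 and CD47 (diamonds) and of the 10 tested genes on either side of each, in chromosome order (circles). Most neighbours lie near 0, and those beyond 1 in either direction are GPR176 beside THBS1, PDE10A at -1.47 and RNASET2 at 1.18 beside THBS2, and HHLA2, NFKBIZ and ZPLD1 beside CD47.

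GPR176 was also among the genes with a profile over the 8 libraries most like that of THBS1. Likeness was the root mean square difference of centred log2 CPM, over 10159 genes with a mean of at least 10 CPM, and mainly reflects the size of the group difference. The 3 nearest to THBS1 were PTHLH, which encodes parathyroid hormone-related protein, at 0.12, ALPK3, an alpha-kinase gene, at 0.131, and GPR176 at 0.133. PTHLH went from 89.4 ± 10.1 to 19.3 ± 2.17 CPM, and ALPK3 from 33.1 ± 3.72 to 6.61 ± 0.62 CPM (SD, 4 libraries a group). Nearest to THBS2 were the fibrillin gene FBN2 at 0.199, C6orf223 at 0.214 and the chemokine gene CXCL14 at 0.352. FBN2 went from 70.9 to 9.02 CPM and C6orf223 from 71.2 to 7.98 CPM, while CXCL14 went from 25 to 5.02 CPM. The distances of THBS2 are larger, and its ADRA2A libraries also varied more than those of THBS1.

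Genes linked to the thrombospondins in several ways, not only as partners, were taken as 9 lists of 200 distinct genes. Of these 145 were tested, 42 rose and 50 fell. Their counts are read against the 21.6% of all tested genes that rose and the 21.1% that fell. Their medians are read against the median of 0.00 over all genes. The lists were chosen with earlier results of these data known, so these counts and medians are a description. Among 15 other surface receptors and binding partners of thrombospondins, 14 were tested, 7 rose, 4 fell and the median log2 fold change was 0.09. ITGB3, whose integrin with ITGAV binds the RGD site of THBS1, rose from 11.6 ± 1.46 to 33.8 ± 2.25 CPM (SD, n = 4 each). That is a log2 change of 1.54 ± 0.09 (SE), edgeR adjusted p = 2.32e-11. LRP1, the endocytic receptor that clears THBS1 and THBS2 complexes, rose from 17.8 ± 2.44 to 36.4 ± 5.25 CPM (edgeR adjusted p = 8.47e-08, SD, n = 4 each). ITGAV itself, the partner chain of ITGB3, fell from 256.7 to 233.3 CPM (edgeR adjusted p = 0.015). SCARB2, a lysosomal relative of CD36, rose from 268.7 to 342.2 CPM, and CALR, the calreticulin that binds the amino-terminal domain of THBS1 with LRP1, fell from 864.1 to 775.3 CPM. ITGA4, an integrin chain that binds THBS1, and KDR, the VEGF receptor of endothelium, fell at low abundance, from 1.48 to 0.471 CPM and from 1.23 to 0.482 CPM. The abundant integrin chains ITGB1, at 3199 and 3433 CPM, and ITGA3, at 1374 and 1492 CPM, had log2 fold changes of 0.10 and 0.12, both past the threshold.

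Around CD47, 9 of 11 listed genes were tested, 4 rose, 1 fell and the median log2 fold change was 0.25. SIRPA, its counter-receptor, rose from 17.3 ± 2.40 to 32.1 ± 1.61 CPM (SD, n = 4 each; edgeR adjusted p = 3.84e-08). THBS1 signalling through CD47 is known to inhibit the nitric oxide and cyclic GMP pathway. GUCY1A1, a subunit of soluble guanylate cyclase, rose from 26.1 to 38.8 CPM, and PDE5A, the cyclic GMP phosphodiesterase, from 10.1 to 19.6 CPM. BNIP3, a mitochondrial protein that binds CD47, fell from 159.7 to 103.9 CPM (edgeR adjusted p = 1.27e-08). QPCTL, which modifies CD47 so that SIRPA can bind, had 7.09 and 6.23 CPM (edgeR adjusted p = 0.227). SIRPG had 0 counts in all libraries.

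Of 23 partners of CD36 and fatty acid handling genes, 20 were tested, 4 rose, 10 fell and the median log2 fold change was -0.28. CAV1, the coat protein of the caveolae in which CD36 resides, fell from 807.2 ± 24.3 to 432.2 ± 23.9 CPM (SD, n = 4 each). In log2 units this is -0.90 ± 0.04 (SE), edgeR adjusted p = 3.41e-13. TLR4, a partner of CD36 in innate signalling, fell from 13.0 to 6.16 CPM, and FYN, a kinase downstream of CD36, from 10.6 to 5.83 CPM. SLC27A1, a fatty acid transport protein, rose from 19.5 to 30.6 CPM, while CPT1A, of mitochondrial fatty acid import, and the kinase SRC rose by 0.27 and 0.26 on the log2 scale. CD36 itself was at the edge of detection in both groups, as given above.

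TGF-beta is held latent outside the cell and THBS1 is one of its activators. Of 18 listed genes 17 were matched and 13 tested, of which 5 rose and 2 fell, with a median log2 fold change of 0.00. TGFBR3, the co-receptor betaglycan, rose from 6.59 ± 0.58 to 19.2 ± 0.936 CPM (SD, n = 4 each; edgeR adjusted p = 7.08e-11). Among the latent TGF-beta binding proteins, LTBP1 fell from 11.3 to 5.39 CPM (edgeR adjusted p = 4.36e-07) and LTBP3 rose from 141.1 to 207.6 CPM (edgeR adjusted p = 7.94e-07). SKIL, a repressor of SMAD signalling, rose from 71.0 to 88.2 CPM, and TGFBI, a matrix protein induced by TGF-beta, fell from 981.0 to 915.4 CPM. SMAD3, the receptor-activated SMAD, was at 285.9 and 286.0 CPM (edgeR adjusted p = 0.987).

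Other proteins with type 1 repeats went both ways. Of 54 listed genes 25 were tested, 7 rose and 8 fell, with a median log2 fold change of -0.05. Those with the highest changes were ADAMTS10, a secreted metalloprotease that acts on fibrillin matrix, at 2.29 from 0.303 to 1.48 CPM, the netrin receptor gene UNC5A at 1.16 and the papilin gene PAPLN at 1.14. Those with the lowest were THSD7A at -1.44, UNC5C at -1.40 and the protease gene ADAMTS16 at -0.95. THSD7A went from 2.09 to 0.768 CPM, UNC5C from 3.13 to 1.2 CPM and ADAMTS16 from 9.95 to 5.15 CPM. CCN1 and CCN2, matricellular proteins that like THBS1 carry a type 1 repeat, fell from 403.4 to 259.2 CPM and from 87.8 to 64.5 CPM. Of the 6 enzymes that glycosylate type 1 repeats, all were tested, 2 rose and 0 fell, with a median log2 fold change of 0.22. B3GLCT, which adds glucose to the fucose on these repeats, rose from 9.49 to 12.4 CPM (edgeR adjusted p = 0.0112) and DPY19L4, of the family of C-mannosyltransferases, from 46.1 to 56.4 CPM (edgeR adjusted p = 7.14e-05). POFUT2, which adds the fucose, had 31.3 and 34.1 CPM (edgeR adjusted p = 0.183).

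The matrix proteins, proteases and growth factors that thrombospondins bind or control included more genes that fell. Of 34 listed genes 18 were tested, 3 rose and 12 fell, with a median log2 fold change of -0.39. IGFBP5, an insulin-like growth factor binding protein that binds THBS1, fell from 8.79 ± 1.16 to 1.24 ± 0.173 CPM (SD, n = 4 each). On the log2 scale the change was -2.82 ± 0.17 (SE), edgeR adjusted p = 8.84e-11. COL1A1, a chain of type I collagen, fell from 78.4 ± 1.93 to 23.9 ± 1.22 CPM (SD, n = 4 each; edgeR adjusted p = 3.41e-15), and LOX, which crosslinks collagen, from 2.89 to 1.13 CPM (edgeR adjusted p = 0.0002). COL1A1 is also the fibroblast marker that carried the summed level given above, while COL3A1 had at most 1 count in a library. FN1, the fibronectin gene, fell from 37.6 to 15.6 CPM. NOTCH3 and its ligand JAG1, both known to bind THBS2, fell by 1.0 and 0.40 on the log2 scale. PLAT, tissue plasminogen activator, rose from 256.4 to 379.0 CPM and GRN, progranulin, from 250.6 to 339.8 CPM. HSPG2, perlecan, rose from 937.4 ± 49.7 to 1036 ± 114.3 CPM (edgeR adjusted p = 0.0459, SD, n = 4 each), though its groups overlapped. With DESeq2 in place of edgeR 2 genes of this list rose, and over the fits without 1 library 2 to 3 did. MMP2 and MMP9, the gelatinases, had at most 5 and 10 counts in a library and were not tested.

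THBS1 is a known target of YAP and TEAD, of SRF and of AP-1. Of 22 YAP/TEAD target genes all were tested, 6 rose and 9 fell, with a median log2 fold change of -0.14. ANKRD1 fell from 770.6 ± 24.3 to 449.2 ± 18.8 CPM (SD, n = 4 each). On the log2 scale the change was -0.78 ± 0.04 (SE), edgeR adjusted p = 9.71e-13. ASAP1, an Arf GTPase-activating protein, and CCN1 fell by 0.67 and 0.64 on the log2 scale. FOXF2, at 0.264 and 1.14 CPM, IGFBP3, at 379.9 and 581.8 CPM, and ARHGEF17, at 45.1 and 58.0 CPM, were the highest of those that rose.

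Among 22 transcription factors described as regulators of THBS1 or THBS2, all were tested, 5 rose, 6 fell and the median log2 fold change was -0.02. FOS, an AP-1 subunit, rose from 11.4 ± 0.912 to 41.3 ± 5.13 CPM (SD, n = 4 each; edgeR adjusted p = 2.23e-12), and JUNB from 39.9 to 62.2 CPM. FOSL1, another AP-1 subunit, fell from 253.3 ± 11.7 to 169.8 ± 8.29 CPM (SD, n = 4 each; edgeR adjusted p = 1.12e-09). MYC, a repressor of THBS1, fell from 181.3 to 144.4 CPM (edgeR adjusted p = 3.25e-07). HOXA5, a homeobox factor described as an inducer of THBS2, rose from 6.93 to 8.74 CPM (edgeR adjusted p = 0.0207). YAP1 was at 262.1 and 251.2 CPM (edgeR adjusted p = 0.141), TEAD1 at 126.1 and 123.5 CPM (edgeR adjusted p = 0.628) and SRF at 68.0 and 62.1 CPM (edgeR adjusted p = 0.0549), none past the threshold. Without ADRA2A replicate 3 the number of these factors that rose was 3 in place of 5.

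**Figure D4:**
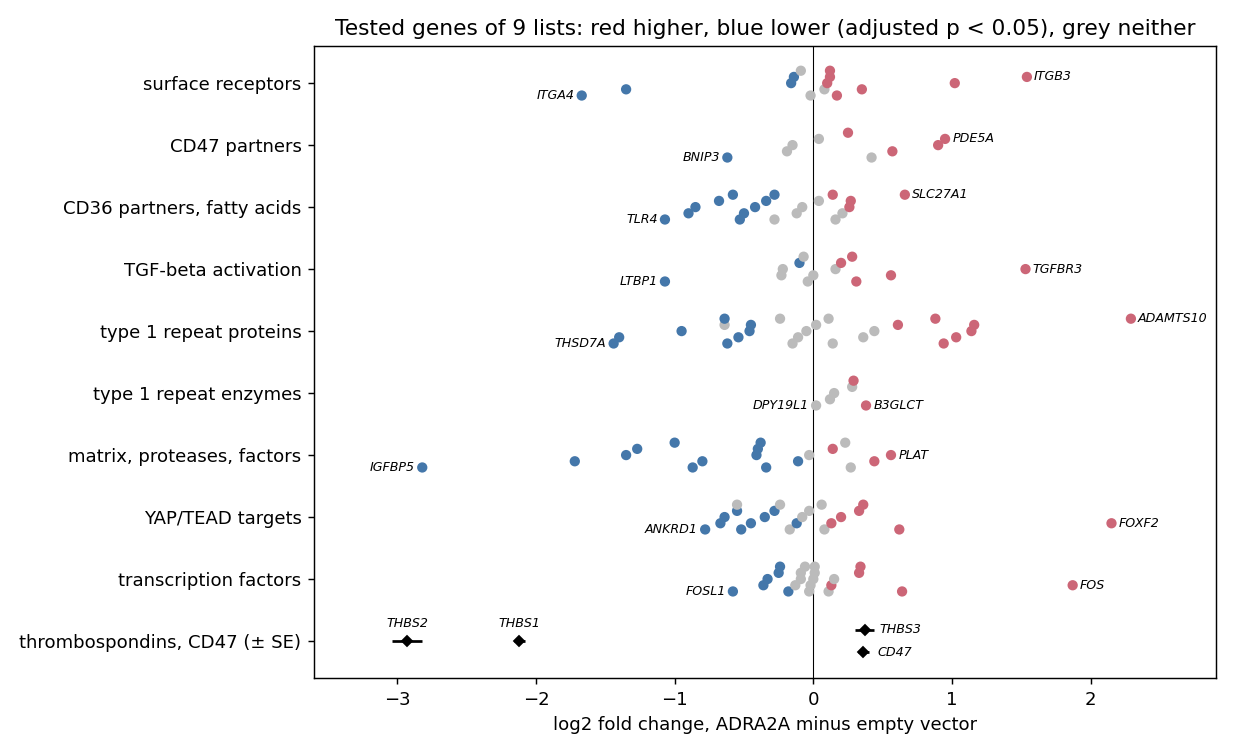
Log2 fold change, ADRA2A minus empty vector (horizontal), of each tested gene of the 9 lists (red higher and blue lower at an edgeR adjusted p-value under 0.05, grey neither), with the lowest and highest gene of each list named, and of THBS1, THBS2, THBS3 and CD47 in the bottom row (diamonds ± SE). Among listed genes IGFBP5 at -2.82 lies lowest, between THBS2 at -2.93 and THBS1 at -2.12.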

How the data were processed

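RNA was measured in 8 CFPAC-1 libraries (4 empty vector, 4 ADRA2A). The authors deposited 1 table of expected counts per gene, not scaled between samples. Cutadapt, STAR, RSEM, DESeq2 and hg38 are named in the submitters' processing notes, with no role or version, and the annotation and use of strand are not given in the sources used here. Columns were assigned by the name in each sample's title, and 0 were left over.

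Expected counts were rounded, filtered with filterByExpr (14785 genes kept) and given TMM scaling factors. They were fitted with edgeR 4.0.16 (R 4.3.3) by its quasi-likelihood test, comparing the groups with no covariate. P-values were adjusted over the whole table by the Benjamini-Hochberg method (threshold 0.05), and SE is the absolute log2 fold change divided by the square root of F. Library totals of 14427035 to 17528915 counts set the precision. The pipeline was tested on simulated data whose changes were larger than most seen here, so that test does not cover small changes. In 12 pairs of libraries within a group, chi-square per gene was at least 2.12, more than sampling noise gives, so none was counted as a duplicate.

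Positions and exon lengths came from GENCODE release 44 on GRCh38, matched by unversioned identifier for 58517 genes (99.4%), and promoters from RefSeq. The genes named are the members, ADRA2A, up to 3 genes each way per list (largest called changes, at least 1 CPM in the higher group), the 3 nearest profiles to THBS1 and THBS2, overlapping genes and markers, except 1 gene that is not reported here. Others were chosen after their values were seen: HHLA2, MUC1, PDE10A, RNASET2, NFKBIZ and ZPLD1 among neighbours, the markers that the rule does not take, and ITGAV, ITGB1, ITGA3, QPCTL, SIRPG, SMAD3, SMAD4, CCN2, POFUT2, FN1, NOTCH3, JAG1, MMP2, MMP9, YAP1, TEAD1 and SRF. The members and lists were chosen with earlier results of these data known. Alternatives were DESeq2 1.42.0, RLE and upper quartile factors, no filter, a mean of at least 50 counts, the replicate block, leaving out each library, the longest transcript or no length for levels, and windows of 5 or 20 neighbours a side. The YAP/TEAD list was written from memory, and 1 gene of the TGF-beta list is not analysed here.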

Additional observations from a re-analysis of the deposited data

Results flagged for a closer look

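In 112 groups of 4 libraries (56 tested genes named by the rule), 4 held a library that lay apart from the other 3 by Dixon's criterion for the gap relative to the range, where chance flags about 1 in 20 groups. None was THBS1, THBS2, THBS3 or CD47. PDE5A was at 8.83 CPM in empty-vector replicate 3 and at 10.4 to 10.6 CPM in the others. GRN was at 272.2 CPM in empty-vector replicate 2 and at 241.4 to 244.6 CPM in the others. FOSL1 was at 270.8 CPM in empty-vector replicate 3, with 245.9 to 248.4 CPM in the others. ANKRD1 was at 421.2 CPM in ADRA2A replicate 4, with 455.8 to 459.9 CPM in the others. In each gene the 4 libraries of the other group lay wholly to 1 side of all 4 of these.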

How the results depend on the processing

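The fold changes of THBS1, THBS2, THBS3 and CD47 lay, over 56 refits (4 genes under 14 alternatives), within -2.15 to -2.10, -3.11 to -2.82, 0.34 to 0.42 and 0.32 to 0.38 on the log2 scale. Against 6314 genes called, the other settings gave 5823 to 6550, and the fits without 1 library 5703 to 6042. Of 252 recounts of the lists, 250 stayed within 1.5 times the reported count. With a mean of at least 50 counts required, 2 in place of 4 surface receptors fell, because low genes were not tested. The transcription factors that rose numbered between 3 and 5 over the fits without 1 library. Same-numbered libraries did not deviate together (correlations from -0.0421 to 0.0701), so the numbers were not taken to pair them. With the replicate block 6400 genes were called, with THBS1 at -2.12 and THBS2 at -2.94. Of the empty-vector libraries, 1 of 4 correlated best with its own number.

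Per kilobase of the longest transcript, levels in the empty-vector and ADRA2A cells were 143.7 and 33.0 CPM for THBS1, 4.85 and 0.627 for THBS2, 6.59 and 8.53 for THBS3 and 51.7 and 66.1 for CD47, in the same order. With no length they were 1119 and 257.4, 28.2 and 3.64, 21.1 and 27.3, and 351.4 and 449.4 CPM. THBS2 then stood above THBS3 in the empty-vector cells. With 5 neighbours a side the median log2 fold change was -0.11 for THBS1, 0.07 for THBS2, -0.07 for COMP and 0.10 for CD47, and with 20 a side 0.03 for THBS4 and 0.04 for COMP. With 10 a side the median was 0.07 for THBS4 and -0.01 for COMP. These 6 of 14 alternative medians differed from those with 10 a side by more than the SD of that median over the ADRA2A libraries. Depth limited THBS4, COMP and CD36, which had at most 11, 1 and 6 counts in a library.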
